A study of Homo sapiens with 6 samples.

Results

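The TNF superfamily genes were read as every transcript cluster on the array that carried exactly 1 gene symbol beginning with TNFSF, for the ligands, or TNFRSF, for the receptors, with antisense genes left out. A transcript cluster is the set of probes that the array assigns to 1 locus. This gave 26 genes, 10 ligands and 16 receptors, of 22465 genes tested, and each of the 26 had 1 cluster. The rule used names only and no measured value, but the family was chosen with earlier results of these data known. Family members with other names, TNF and LTBR among them, were read from separate lists.

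The samples were cultures of MDA-MB-231, a long-established line of human triple-negative breast cancer cells. Both groups were transduced with lentivirus, selected as stable lines with 2 µg/ml puromycin and grown in complete DMEM for 24 h. The shDAXX group carried a hairpin against the DAXX coding sequence, expressed from the human H1 promoter, and the shControl group a scrambled hairpin. Each group had 3 samples that the submitters call biological replicates, and 200 ng of total RNA from each was labelled with biotin and hybridized to 1 Affymetrix Human Transcriptome Array. A single hairpin sequence was described for DAXX, and the sources used here do not say whether each line was a pool or a clone. Effects of DAXX loss and of that hairpin or line cannot be told apart with these samples.

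Values are log2 RMA signals, in which 1 unit is a 2-fold difference. A gene was called when its limma p, adjusted over the 22465 genes, was under 0.05, and fold changes are shDAXX minus shControl. DAXX itself read 7.49, 7.48 and 7.43 in shControl and 6.69, 6.67 and 6.61 in shDAXX, a fall by 0.81 (SE 0.060, limma adjusted p = 4.9e-04), so every library matched its label. Of all genes, 967 (4.30%) were called higher and 1257 (5.60%) lower. That split depended on scaling, since lower genes made up 56.5% of calls on the values as deposited and 45.6% once array medians were equalized, which moved the median fold change of all genes from 0.01 to 0.04. The cell line's markers VIM, AXL and MSN read 16.01, 15.84 and 15.91 in shControl, and the hormone receptor genes ESR1 and PGR read 4.53 and 4.04, below the table's median row mean of 4.99. The luminal genes GATA3 and FOXA1 read 7.06 and 5.22, above it. Of the 9 measured markers of the line, CD44 was called higher and AXL, MSN and CAV1 lower (44.4% called, against 9.90% of all genes). Of all genes with a mean signal above the table median, as 7 of the 9 had, 14.9% were called. The AXL call was lost under quantile normalization and the CAV1 call whichever array was left out (limma adjusted p 0.053 to 0.07). The CD44 call was lost without shDAXX replicate 2 or 3 (limma adjusted p 0.051 to 0.053). It was also lost over every transcript cluster (0.088) and with the mean over the gene's clusters (0.21).

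TNF superfamily ligands are mostly membrane proteins that act as trimers, on the cell surface or after cleavage, and gather receptor chains on the responding cell. Receptors with a cytoplasmic death domain, such as TNFR1 and the TRAIL receptors, recruit adaptors that can start apoptosis. Receptors without one bind TRAF proteins and activate NF-kB, and decoy receptors bind ligand without passing on a death signal. DAXX takes its name from the death domain of the receptor FAS, with which it was first found to associate.

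Among the 26 genes, 3 were higher in shDAXX (TNFSF10, TNFRSF9 and TNFRSF10A) and 2 were lower (TNFRSF1A and TNFRSF21). The remaining 21 did not pass the test. The 5 calls were 19.2% of the family, against 9.90% of all genes tested. Brighter genes were called more often, and all 5 calls fell among the 22 members brighter than the table median. Of those 22 members 22.7% were called, against 14.9% of all genes brighter than that median, a smaller contrast. Of the 10 ligands 1 was called (10%), and of the 16 receptors 4 (25%). The family's median fold change was 0.06, and that of all genes was 0.01. The family's value moved to 0.02 or 0.04 without shControl replicate 1 or 2, to 0.04 or 0.03 without shDAXX replicate 1 or 3, and to 0.10 with equal array medians. Fold changes were above 0 for 15 members and below 0 for 11. The 3 arrays of each group did not overlap for 6 of the 26 members, a smaller share than the 28.7% of all genes. All 6 were among the 22 brighter members, and 5532 of the 14291 genes above the table median did not overlap. The median of the family was thus close to that of all genes, and the called members went in both directions.

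**Figure D1:**
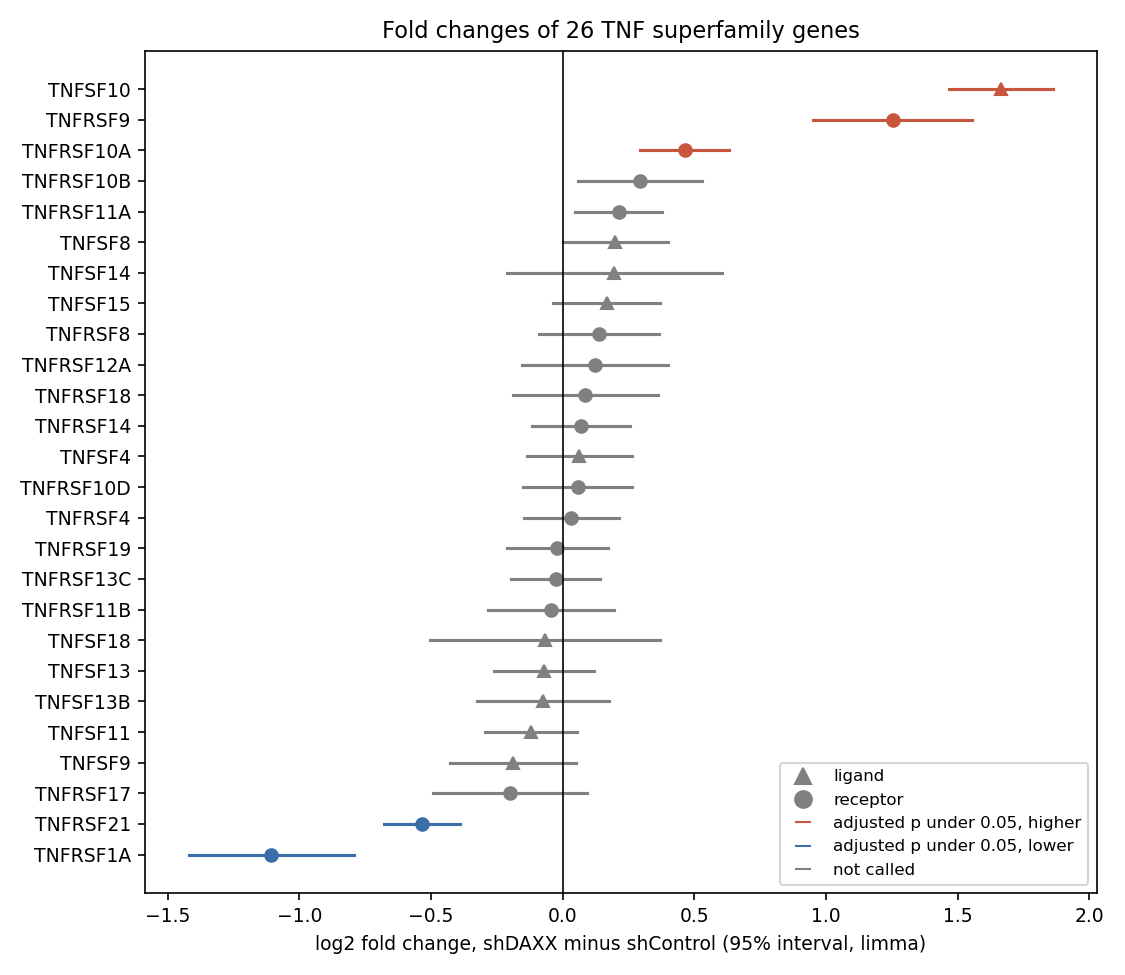
Log2 fold changes (horizontal axis, shDAXX minus shControl) of the 26 genes with their 95% limma intervals, triangles for ligands and circles for receptors, coloured where the adjusted p was under 0.05. TNFSF10 (1.67) and TNFRSF9 (1.25) lie farthest to the right and TNFRSF1A (-1.11) farthest to the left, and most intervals include 0.

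TNFSF10 encodes TRAIL, the ligand that triggers apoptosis through the death receptors DR4 and DR5. Its signal was 6.07, 6.27 and 6.03 in shControl and 7.75, 7.86 and 7.76 in shDAXX. Every shDAXX array lay above every shControl array, with a gap of 1.48 between the groups. The means were 6.12 ± 0.129 and 7.79 ± 0.0608 (SD, n = 3), a 3.17-fold rise (log2 fold change 1.67, SE 0.0834, limma adjusted p = 1.0e-04). In RNA from a whole culture, more RNA per cell and more cells that hold the transcript cannot be told apart. TNFSF10 was the only ligand of the 10 that was called, and its rise was the 26th largest of the 22465 genes. With each array left out in turn, the fold change ran from 1.62 to 1.74 and the limma adjusted p from 3.8e-04 to 0.0012.

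TNFRSF9 encodes 4-1BB (CD137), a costimulatory receptor best known on activated T cells. It read 4.63, 4.37 and 4.73 in shControl and 5.71, 6.04 and 5.74 in shDAXX, again with no overlap. The means were 4.58 ± 0.186 and 5.83 ± 0.182 (SD, n = 3), a 2.38-fold rise (log2 fold change 1.25, SE 0.127, limma adjusted p = 0.0017). The shControl signals lay below the table's median row mean of 4.99. RMA compresses differences near background, so this fold may be understated, which was not tested. The fold change stayed between 1.15 and 1.33 with any 1 array left out.

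The proximal promoters of these 2 genes, which had the largest rises of the family, are shown from 250 bases before to 50 after the start of the gene (RefSeq, GRCh38.p14). TNFSF10 lies at chr3:172523381-172523680 on the minus strand and TNFRSF9 at chr1:7940790-7941089 on the minus strand. Capitals mark matches to the ISRE, the TATA box, GAS, NF-kB and AP-1 motifs, found on either strand.
TNFSF10: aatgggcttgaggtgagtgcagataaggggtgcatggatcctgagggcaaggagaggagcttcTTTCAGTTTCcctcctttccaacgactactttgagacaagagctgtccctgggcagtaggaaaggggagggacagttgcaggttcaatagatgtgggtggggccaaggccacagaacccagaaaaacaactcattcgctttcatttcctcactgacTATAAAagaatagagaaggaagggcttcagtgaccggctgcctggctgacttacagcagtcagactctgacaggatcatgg
TNFRSF9: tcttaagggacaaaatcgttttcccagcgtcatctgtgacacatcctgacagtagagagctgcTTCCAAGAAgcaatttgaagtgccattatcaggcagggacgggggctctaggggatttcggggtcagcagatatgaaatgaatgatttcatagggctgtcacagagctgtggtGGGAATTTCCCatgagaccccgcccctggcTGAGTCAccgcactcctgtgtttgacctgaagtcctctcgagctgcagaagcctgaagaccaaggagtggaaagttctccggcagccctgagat

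The TNFSF10 window held 1 match to the interferon-stimulated response element (ISRE, GAAANNGAAA) 187 bases before the start and a TATA box (TATAAA) 31 bases before it. The TNFRSF9 window held a pair of NF-kB matches that overlap, 74 and 73 bases before the start, a STAT element (GAS, TTCNNNGAA) 187 bases before it and an AP-1 site (TGANTCA) 44 bases before it. It also held a GC box (GGGCGG) 55 bases before the start, which is not capitalized. Of the 26 members, 17 had a promoter in the RefSeq table used here. NF-kB matches were present in 3 of the 17 and in 5.91% of all 35116 promoters of that length. ISRE matches were present in 4 of the 17 and in 3.57% of all promoters. GAS, AP-1, TATA box and GC box matches were in 2, 4, 3 and 8 of the 17, and in 7.66%, 7.71%, 11.5% and 45% of all promoters. The SREBP element (SRE, TCACNCCAC) was in 0 of the 17 and in 1.13% of all promoters. The other NF-kB matches were in TNFSF14 and TNFRSF14, which were not called, and the other ISRE matches were in TNFSF9, TNFSF13B and TNFSF14, also not called. The windows of the lowered genes TNFRSF1A and TNFRSF21 had none of the NF-kB, ISRE, GAS, AP-1 or TATA box letters, and TNFRSF21 had 1 GC box. A match is a stretch of letters and no measurement of binding.

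The receptors for TRAIL were measured beside their ligand. TNFRSF10A, which encodes the death receptor DR4, read 9.69, 9.67 and 9.71 in shControl and 10.27, 10.11 and 10.08 in shDAXX. All shDAXX arrays were above all shControl arrays. The means were 9.69 ± 0.02 and 10.15 ± 0.102 (SD, n = 3), a 1.38-fold rise (log2 fold change 0.46, SE 0.0718, limma adjusted p = 0.0093). This call was lost when p-values were adjusted over every transcript cluster on the array (adjusted p = 0.062), and it was kept with any 1 array left out.

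TNFRSF10B encodes DR5, the other TRAIL death receptor. It read 9.44, 9.67 and 9.43 in shControl and 9.86, 9.90 and 9.66 in shDAXX. The highest shControl array was above the lowest shDAXX array, so the groups overlapped. Its fold change was 0.29 (SE 0.0989, unadjusted p = 0.021) and did not pass after adjustment (limma adjusted p = 0.13, 95% interval 0.06 to 0.53).

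TNFRSF10D encodes the decoy receptor DcR2, which has a truncated death domain. It read 10.03, 10.26 and 10.13 in shControl and 10.20, 10.30 and 10.09 in shDAXX, with overlapping arrays. The fold change was 0.06 (limma adjusted p = 0.77, 95% interval -0.15 to 0.27). TNFRSF11B, the gene of the secreted decoy osteoprotegerin, which binds RANKL and TRAIL, read 8.59, 8.50 and 8.38 in shControl and 8.33, 8.38 and 8.63 in shDAXX. Its fold change was -0.04 (95% interval -0.28 to 0.20), and neither decoy was called.

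TNFRSF10A, TNFRSF10B and TNFRSF10D are neighbours in the genome. Within each array, the signal of TNFRSF10A minus that of TNFRSF10D was higher in shDAXX by 0.41 with no overlap. An exact two-sided permutation test gave p = 0.1, the smallest that 3 arrays against 3 allow (0.15 adjusted over 3 gene pairs). Their means were 9.69 and 10.14 in shControl and 10.15 and 10.20 in shDAXX, so they lay closer together in shDAXX. The signal of TNFRSF10A minus that of TNFRSF10B was higher in shDAXX by 0.17, with overlapping arrays (exact permutation p = 0.3, adjusted 0.3). These pairs were chosen after the values were seen.

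**Figure D2:**
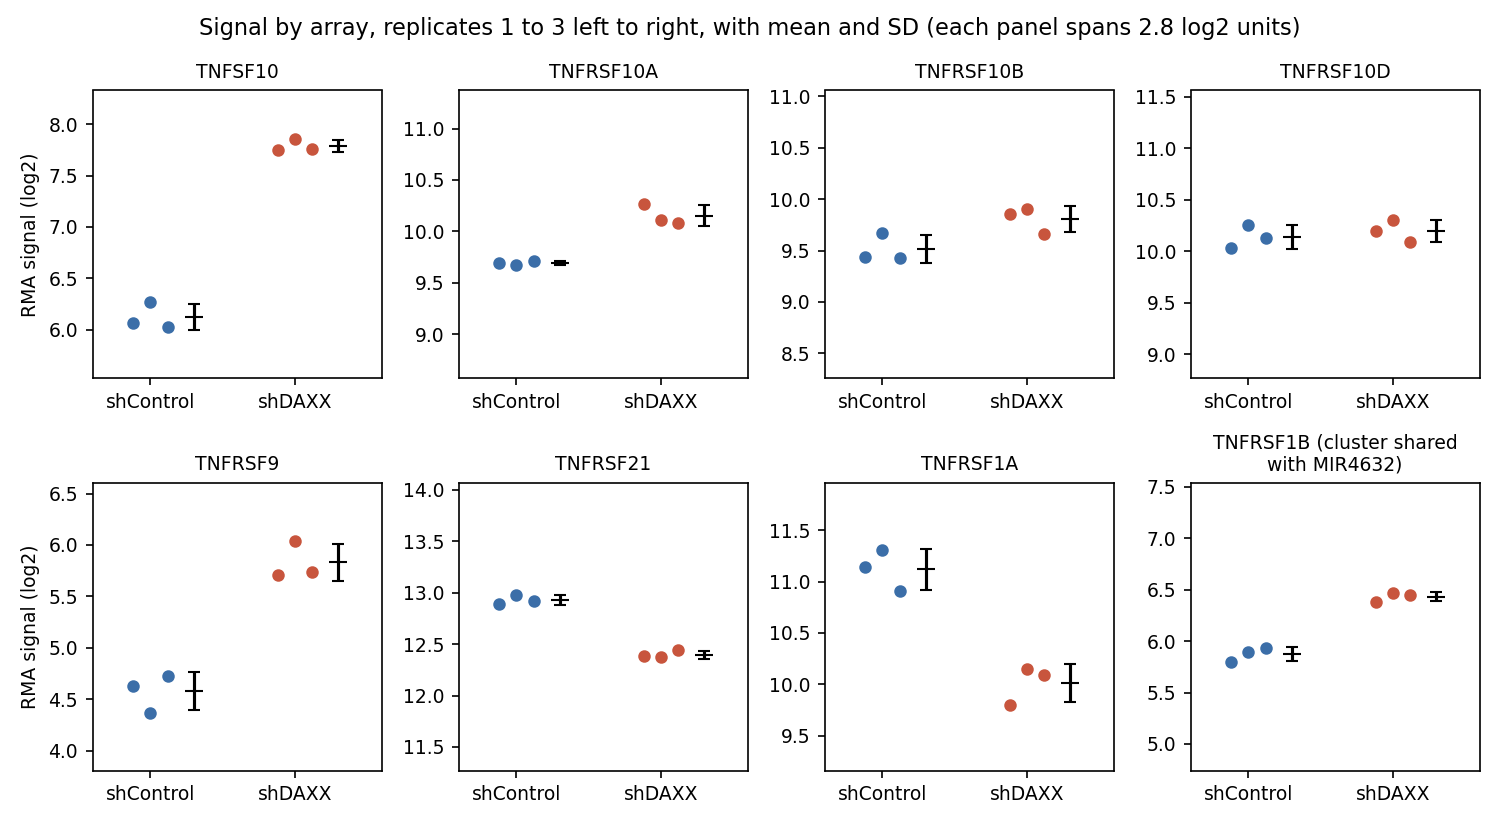
Log2 RMA signal (vertical axis) of 8 genes in each shControl and shDAXX array, with the mean and SD beside the points and the same span in every panel. TNFSF10 and TNFRSF9 rise clear of the shControl arrays, TNFRSF10A and TNFRSF21 shift by 0.46 and -0.53, and TNFRSF1A falls while the TNFRSF1B cluster is higher.

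TNFRSF1A encodes TNFR1, the widely expressed death domain receptor for TNF. It read 11.14, 11.31 and 10.91 in shControl and 9.80, 10.15 and 10.09 in shDAXX. The lowest shControl array was 0.76 above the highest shDAXX array. The means were 11.12 ± 0.201 and 10.01 ± 0.187 (SD, n = 3), 2.15-fold lower in shDAXX (log2 fold change -1.11, SE 0.132, limma adjusted p = 0.0033). Its fall ranked 107th among all genes. The fold change ran from -1.21 to -1.0 when 1 array was left out, with a limma adjusted p of at most 0.018.

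TNFR1 has a partner receptor, TNFR2, encoded by TNFRSF1B and lacking a death domain. Its cluster was outside the 26 because it was also paired with the microRNA gene MIR4632, and the signal of the 2 loci cannot be told apart. That cluster read 5.80, 5.89 and 5.93 in shControl and 6.38, 6.47 and 6.45 in shDAXX. It was higher by 0.56 (SE 0.0858, limma adjusted p = 0.028 over all 67528 transcript clusters). Within arrays, its signal minus that of TNFRSF1A was higher in shDAXX by 1.67 with no overlap (exact two-sided permutation p = 0.1, the smallest possible, 0.15 adjusted over the 3 pairs). The cluster read below TNFRSF1A in every array, so the signals lay closer together in shDAXX.

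TNFRSF1A lies on chromosome 12 among genes that were also lower. Of its 20 nearest measured genes, 10 on each side, 7 were lower and 1 was higher by the same test, and their median fold change was -0.11. Around the other members of the family, 0 to 2 of the 20 were called lower. From IQSEC3 to CPNE8, a stretch that was chosen with the results known, 125 of 308 genes were lower (40.6%, median -0.21), against 4.48% of the other 804 genes of that chromosome (median 0.03). TNFRSF1A was the 24th lowest of the 308 and differed from their median by -0.90. LTBR, the lymphotoxin beta receptor gene, lies 2 positions away in gene order and was also called lower. What part the position had in the fall of TNFRSF1A was not tested.

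**Figure D3:**
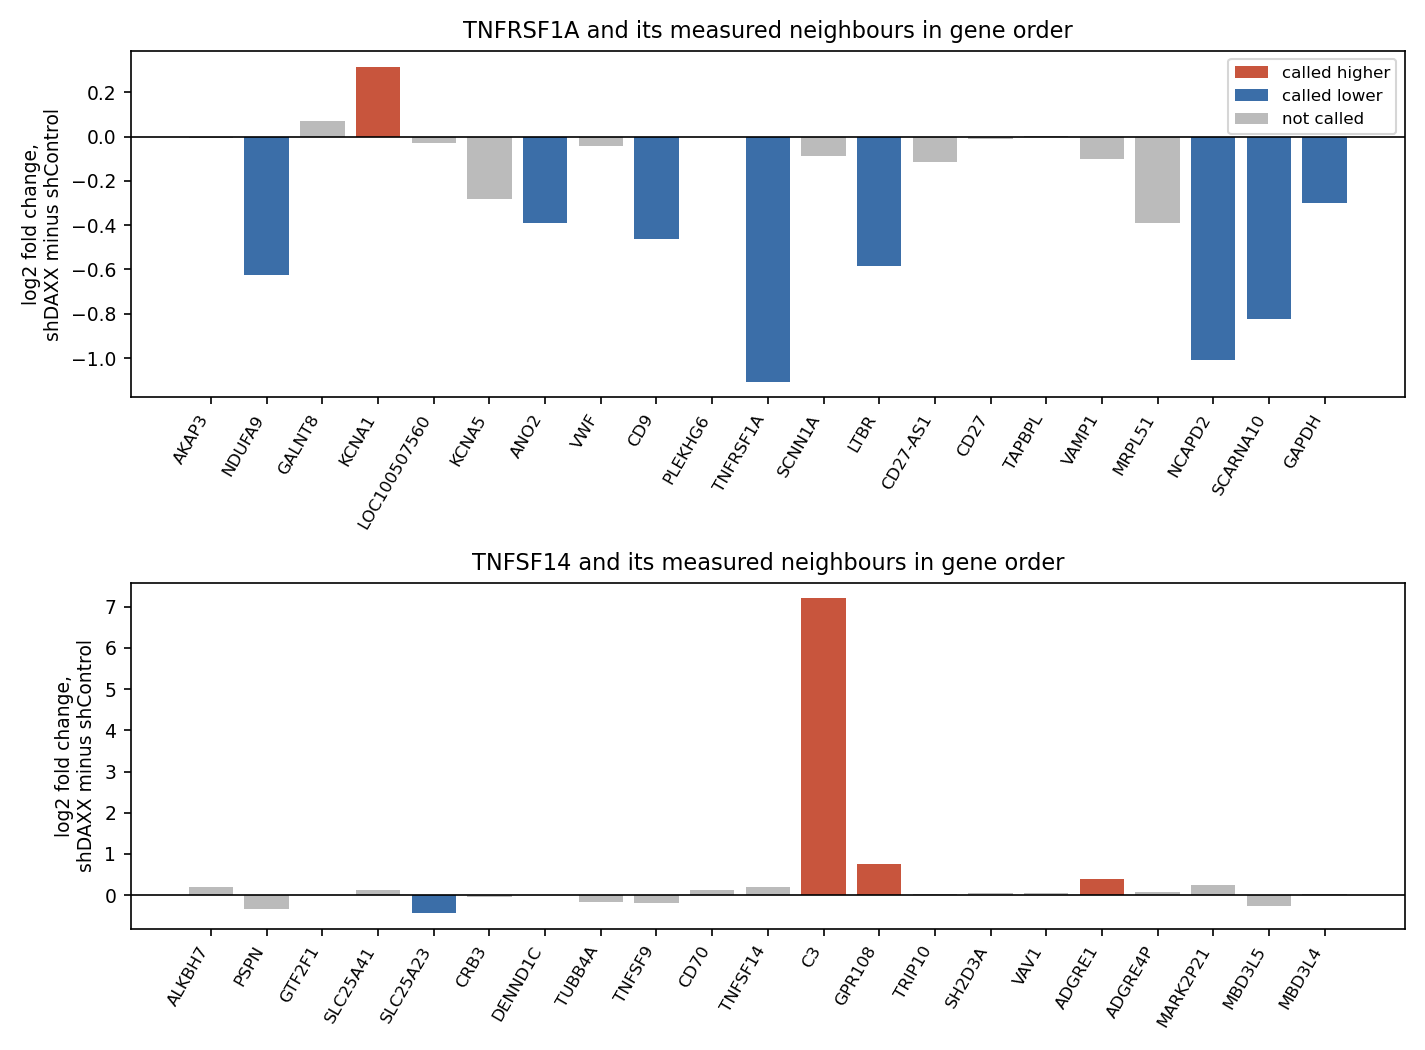
Log2 fold changes (vertical axis) of TNFRSF1A, above, and TNFSF14, below, with the 10 nearest measured genes on each side in gene order (horizontal axis), red where called higher, blue where called lower and grey where not called. TNFRSF1A (-1.11) stands among 7 other genes called lower, and TNFSF14 (0.20) stands beside C3 (7.20).

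TNFRSF21 encodes DR6, a death domain receptor. It read 12.89, 12.98 and 12.92 in shControl and 12.38, 12.37 and 12.44 in shDAXX. Replicates were close and the groups were 0.45 apart. The means were 12.93 ± 0.0458 and 12.40 ± 0.0379 (SD, n = 3), 1.45-fold lower in shDAXX (log2 fold change -0.53, SE 0.0612, limma adjusted p = 0.0028). Of its 20 nearest measured genes 2 were called lower and 1 higher. The fold change was between -0.56 and -0.51 with any 1 array left out.

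Several receptors with high or moderate signals did not pass. TNFRSF11A encodes RANK, the receptor for RANKL and a driver of osteoclast formation. It read 7.11, 7.05 and 6.95 in shControl and 7.23, 7.21 and 7.31 in shDAXX, with no overlap and a gap of 0.10. Its fold change was 0.21 (SE 0.0697, unadjusted p = 0.019), short of the threshold after adjustment (limma adjusted p = 0.12, 95% interval 0.05 to 0.38). TNFRSF12A encodes Fn14, the receptor for TWEAK. It read 11.13, 11.58 and 11.33 in shControl and 11.55, 11.44 and 11.42 in shDAXX, so that shControl replicate 2 was the highest array of all. Its fold change was 0.12 (SE 0.117, limma adjusted p = 0.60, 95% interval -0.15 to 0.40).

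The other 7 receptors had mean signals from 4.28 to 5.67 and fold changes from -0.20 to 0.14, and none was called. TNFRSF18 (GITR, 0.09), TNFRSF4 (OX40, 0.03) and TNFRSF8 (CD30, 0.14) are costimulatory receptors of lymphocytes. TNFRSF13C (the BAFF receptor, -0.03) and TNFRSF17 (BCMA, -0.20) belong to B cells and plasma cells. TNFRSF17 had its highest value in shControl replicate 1, at 4.66, and the other 5 arrays read 4.14 to 4.27. TNFRSF14 encodes HVEM, the receptor for LIGHT (0.07), and TNFRSF19 encodes TROY (-0.02). The arrays of the groups overlapped for all of these receptors.

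Apart from TNFSF10, no ligand passed the test. TNFSF15 encodes TL1A, a ligand of endothelial and immune cells. It read 11.72, 11.51 and 11.47 in shControl and 11.81, 11.70 and 11.69 in shDAXX. The fold change was 0.17 (SE 0.086, limma adjusted p = 0.30, 95% interval -0.04 to 0.37), and shControl replicate 1 lay among the shDAXX arrays. TNFSF9 encodes the ligand of 4-1BB, the receptor whose gene TNFRSF9 rose. It read 7.19, 7.14 and 7.37 in shControl and 6.87, 7.12 and 7.14 in shDAXX, and 1 array of each group had the same value of 7.14. Its fold change was -0.19 (SE 0.101, limma adjusted p = 0.32, 95% interval -0.43 to 0.05). Receptor and ligand of this pair therefore gave 1 call and 1 that missed the threshold.

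The other 7 ligands had fold changes between -0.12 and 0.20. TNFSF13 (APRIL) and TNFSF13B (BAFF) are survival factors of B cells, and both had fold changes of -0.07. TNFSF4 (OX40 ligand) and TNFSF18 (GITR ligand), neighbours on chromosome 1, had fold changes of 0.06 and -0.07. TNFSF18 was uneven in shDAXX, where it read 5.99, 5.26 and 5.71. TNFSF11, the gene of RANKL, had a fold change of -0.12. TNFSF8 (CD30 ligand) read 4.41, 4.19 and 4.25 in shControl and 4.38, 4.55 and 4.52 in shDAXX, with 1 shControl array inside the shDAXX range and a limma adjusted p of 0.21.

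TNFSF14 encodes LIGHT, a ligand of HVEM and the lymphotoxin beta receptor. It read 5.21, 4.49 and 4.68 in shControl and 4.97, 4.99 and 5.01 in shDAXX. The shControl arrays were spread on both sides of the shDAXX arrays, and the fold change was 0.20 (limma adjusted p = 0.57, 95% interval -0.21 to 0.61). Its next measured gene is C3, the complement component, which read 6.25 ± 0.0757 in shControl and 13.46 ± 0.156 in shDAXX (SD, n = 3), a fold change of 7.20. GPR108, the gene beyond C3, was called higher (0.75), while CD70, the ligand gene on the other side of TNFSF14, had a fold change of 0.12 and was not called.

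**Figure D4:**
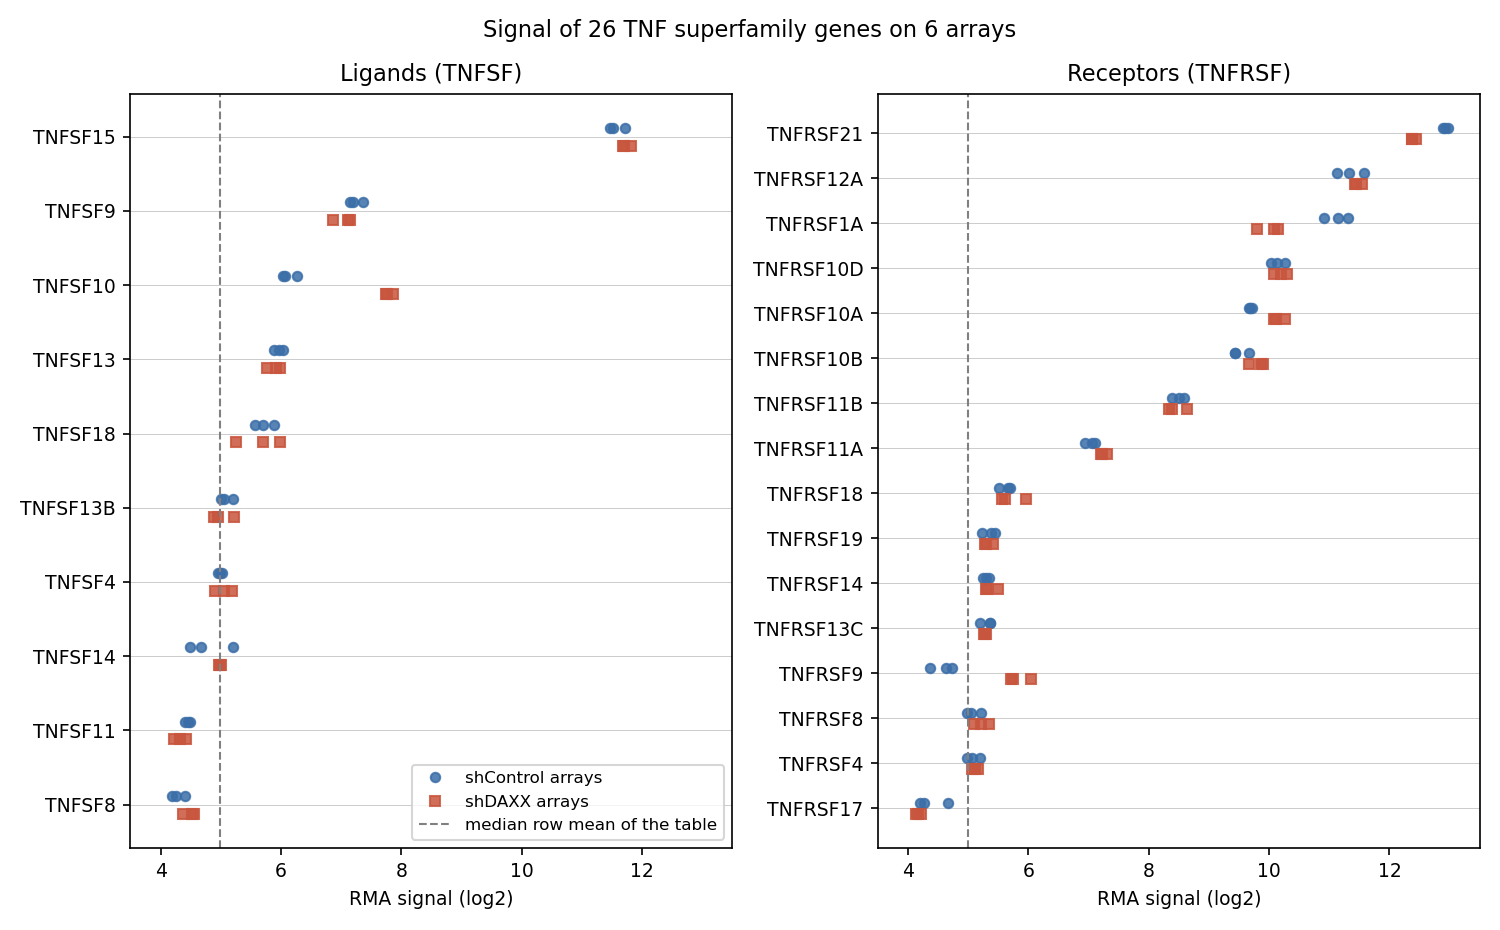
Log2 RMA signal (horizontal axis) of the 10 ligands and 16 receptors in each shControl (circles) and shDAXX (squares) array, with the table's median row mean of 4.99 as a dashed line. The groups separate for TNFSF10, TNFRSF9, TNFRSF10A, TNFRSF1A and TNFRSF21, and by 0.10 for TNFRSF11A, while the symbols of the other 20 genes overlap.

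Ligands of the superfamily that carry other names had 0 calls in 6 measured of 7 listed by limma, and 0 had an unadjusted p under 0.05. TNF itself read 4.85 ± 0.193 in shControl and 4.70 ± 0.0651 in shDAXX (SD, n = 3, fold change -0.15, limma adjusted p = 0.47), and EDA had a fold change of 0.14. TNF, LTA, FASLG, CD70 and EDA all had mean signals below the table median, so a change of low transcripts may not have been measurable. CD40LG was not analysed here.

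Of 8 receptors with other names, 1 was higher and 1 lower (25% called, against 9.90% of all genes), with a median of 0.03. NGFR, the death domain receptor of neurotrophins, read 6.76, 6.66 and 6.62 in shControl and 7.73, 7.66 and 7.82 in shDAXX (fold change 1.06, SE 0.0728, limma adjusted p = 3.5e-04). LTBR read 8.61, 8.83 and 8.73 in shControl and 8.11, 8.20 and 8.11 in shDAXX (-0.58, SE 0.0769, limma adjusted p = 0.0049). Neither overlapped between groups. FAS, the death receptor for which DAXX was named, read 6.53 ± 0.07 and 6.78 ± 0.0917 (SD, n = 3), a fold change of 0.25 that did not pass (limma adjusted p = 0.092). CD40 had a fold change of 0.06.

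Across the 7 pathway lists, the name lists of ligands and receptors above included, 11 of 49 measured genes were higher and 3 lower (28.6% called, median 0.12). These shares stand beside 9.90% of all genes called, and 14.9% of all genes with a mean signal above the table median. In the death signalling list 1 of 7 measured genes was higher and 0 were lower (14.3% called), close to the share among all genes above the table median. This was BID, which links caspase-8 to the mitochondria (fold change 0.91, limma adjusted p = 0.0029). FADD, the adaptor of death receptors, had 0.29, and the initiator caspase genes CASP8 and CASP10 had -0.07 and 0.17, none of them called. CFLAR and RIPK1 were not analysed here.

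In the TRAF and IAP adaptor list 2 of 6 measured genes were higher and 1 lower (50% called). That stands against 9.90% of all genes and 14.9% of those above the table median, where all 6 lay. TRAF3, which restrains the noncanonical NF-kB pathway, read 8.13, 8.38 and 7.98 in shControl and 9.06, 9.34 and 9.26 in shDAXX (fold change 1.06, limma adjusted p = 0.0029). TRAF1, a TRAF without a RING domain, was higher by 0.45 (limma adjusted p = 0.026) and TRAF6, a ubiquitin ligase of several receptor pathways, was lower (-0.26, limma adjusted p = 0.041). TRAF1 kept its call when shDAXX replicate 1 was left out and missed the threshold when any other array was (adjusted p 0.063 to 0.087), and TRAF6 missed it whichever of the 6 arrays was left out (0.074 to 0.12).

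In the list of kinases and ubiquitin enzymes 1 of 11 measured genes was higher and 1 lower (18.2% called), with a median of -0.03. All 11 had mean signals above the table median, where 14.9% of all genes were called, against 9.90% of all genes tested. TNFAIP3 encodes A20, which switches off signalling from TNFR1. It read 7.77, 8.03 and 7.90 in shControl and 9.96, 9.99 and 9.92 in shDAXX, a fold change of 2.06 (limma adjusted p = 3.3e-05). TAB2, a partner of the kinase TAK1, was lower (-0.25, limma adjusted p = 0.039), and missed the threshold whichever array was left out (0.085 to 0.12).

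NF-kB subunits and inhibitors were higher in 5 of 8 members and lower in 0, with a median of 0.46, against 4.30% of all genes called higher. All 8 had mean signals above the table median, where 911 of 14291 genes were called higher. NFKBIA, the inhibitor IkB-alpha, was higher by 1.91, REL by 0.59, NFKB2 by 0.58 and NFKB1 by 0.54. RELB was higher by 0.38, and missed the threshold when any array other than shDAXX replicate 3 was left out (limma adjusted p 0.053 to 0.072). RELA, the most widely used activating subunit, had a fold change of 0.08 and was not called. NFKBIA and TNFAIP3 are feedback inhibitors that NF-kB itself induces. Among the proteases, all of them also above the table median, 1 of 3 was higher, against the same 4.30% and the same 911 of 14291. This was ADAM17, which sheds TNF and TNFR1 from the cell surface (0.39, limma adjusted p = 0.022), and it missed the threshold when any array other than shDAXX replicate 1 was left out (0.057 to 0.076).

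**Figure D5:**
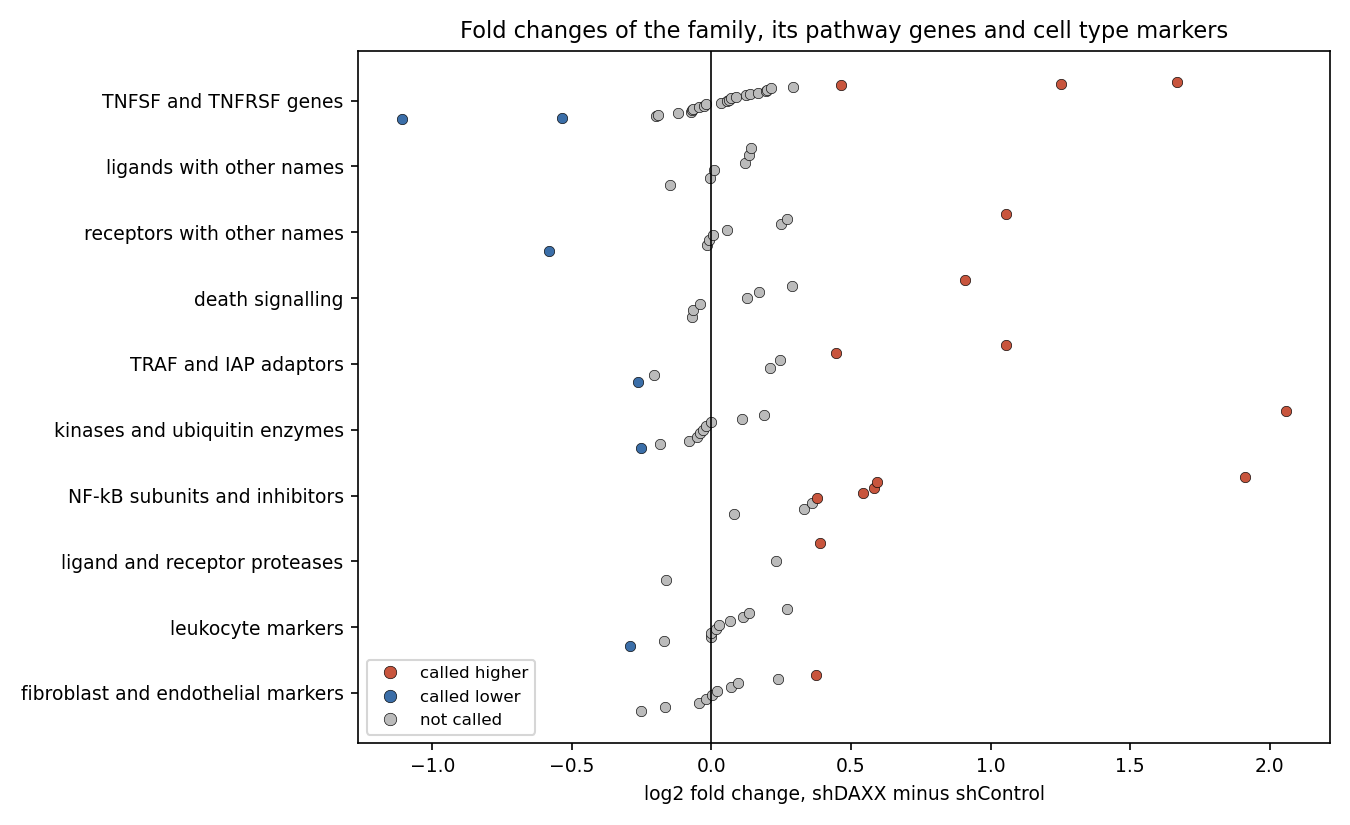
Log2 fold change (horizontal axis, shDAXX minus shControl) of each measured gene, 1 point per gene, for the 26 TNFSF and TNFRSF genes, the 7 pathway lists and 2 marker lists of other cell types (vertical axis), red where called higher, blue where called lower and grey where not called. The NF-kB list has 5 genes called higher and 0 lower, and the ligands with other names have 0 calls.

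Leukocyte markers were read beside these results because many of the genes are best known in immune cells. Of 10 measured markers 0 were higher and 1 was lower (10% called, against 9.90% of all genes), and their mean signals ran from 4.29 to 5.29, near the table's median row mean of 4.99. CD3E read 5.14 in shControl and 5.28 in shDAXX, MS4A1 read 4.37 and 4.39, and CSF1R read 4.76 in both. The lower gene was PTPRC (-0.29), which missed the threshold whichever array was left out (limma adjusted p 0.066 to 0.087). Of 10 fibroblast and endothelial markers, 1 was higher and 0 were lower (10% called, against the same 9.90%). This was CDH5 (0.37), which missed it when any array other than shDAXX replicate 1 was left out (0.072 to 0.11).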

How the data were processed

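The deposited table held log2 RMA signals that the authors made from 6 one-colour arrays with the RMA method, which corrects background, normalizes between arrays and summarizes probes, and the submitters' notes name Affymetrix Expression Console. The log base was inferred from the values, which lay between 1.88 and 19.52. A batch correction is among the methods, and the sources used here do not say whether these arrays received it. RMA shrinks differences near background, so folds of dim genes may be understated. Probe sets differ in response, so signals are compared between groups and not between genes.

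Of 70523 rows, 67528 were transcript clusters. Those with 1 symbol (23781) were kept, with the highest mean of a gene's clusters used for 479 genes, which left 22465 genes. Names and gene order came from the RefSeq table of GRCh38.p14, in which all 26 members were found. The groups were compared with limma 3.58.1 in R 4.3.3 (lmFit and eBayes, two-sided, no covariates, Benjamini-Hochberg over all genes, threshold 0.05). The fit was tested on simulated data. Arrays of a group correlated at 0.996 to 0.997 and arrays of different groups at 0.991 to 0.992, with 0 identical pairs. Precision is limited by the number of arrays, and p-values measure the spread between these cultures.

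The members and gene lists were chosen with earlier results of these data known. All members are accounted for, and arrays are given singly for called members, for those with an unadjusted p under 0.05, and for the 3 ligands and 3 receptors with the highest mean signal. Arrays of TNFRSF10D, TNFRSF11B, TNFRSF17, TNFSF8, TNFSF14 and TNFSF18 are also given, chosen after their values were seen. Up to 4 called genes per direction are named from each pathway list, or up to 2 with the smallest p. Genes named beyond that rule, among them C3, GPR108, CD70, FADD, CASP8, CASP10, FAS, CD40, RELA and the clusters paired with several symbols, were chosen after their values were seen. The alternatives changed the genes tested (dim genes left out, protein-coding genes alone, or all transcript clusters), the value per gene (mean over its clusters), the scaling (quantile normalization or equal medians), the model (replicate number as a block, trend with robust eBayes, or array weights), the test (the methods' t-test, or a minimum fold of 1.3) and the samples (each array left out).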

Additional observations from a re-analysis of the deposited data

Results flagged for a closer look

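The cluster paired with TNFRSF1B and MIR4632 was outside the 26 genes because it carried 2 symbols, and it was higher in shDAXX than in the shControl arrays by 0.56 on the log2 scale. Means were 5.87 ± 0.0666 for shControl and 6.43 ± 0.0473 for shDAXX (SD, n = 3), and the lowest shDAXX array (6.38) was above the highest shControl array (5.93). Which of the 2 loci gave the signal was not tested.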

How the results depend on the processing

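Of 266 recomputed results, 253 were kept and 0 reversed. A gene was kept with the same direction and side of the threshold, which for a gene not called means staying uncalled. A count was kept within 1.5 times. The family's median was kept if it moved by less than the within-group SD of the arrays' family medians. That SD was larger than the median itself (0.06), so a move to no change would also have counted as kept. The 5 called family genes were the same under every alternative except one. Over every transcript cluster TNFRSF10A lost its call (limma adjusted p = 0.062) and the other 4 kept theirs. The count of all called genes was 2224, against 1440 over every transcript cluster, where more features are tested, 1474 with the replicate block, and 1297 to 1424 with 1 array left out, where fewer arrays are used. The pathway lists had 14 called genes, against 9 over every transcript cluster, 10 with the replicate block and 9 to 11 with 1 array left out. The replicate block called 5 family genes, 3 higher and 2 lower. Samples with the same replicate number had deviations from their group means that correlated at -0.09, 0.22 and 0.08, so the numbers were not shown to pair the samples. Array signals near background limit what dim members can show, and 4 of the 26 genes had a mean signal below the table median.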

Other observations

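Another 5 clusters carried a family symbol together with others and were left out of the 26 genes, and none was called (limma adjusted p at least 0.28 over all 67528 clusters). The cluster of the TRAIL decoy receptor gene TNFRSF10C, shared with LOC254896, read 6.39, 6.41 and 6.27 in shControl and 6.10, 6.19 and 6.04 in shDAXX, with no overlap, a fold change of -0.25 and an adjusted p of 0.28. The cluster of TNFRSF6B, the gene of a decoy for the FAS ligand, shared with RTEL1, had a fold change of -0.21. The clusters that hold TNFRSF13B, TNFSF12 and TNFRSF25 had fold changes of 0.08, -0.02 and 0.003.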
